A study of Mus musculus with 36 samples.

Results

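The Myc family members Myc and Mycn, their partner Max, and 7 regulators of the step from G1 into S phase (Ccnd2, Ccnd3, Cdk4, Cdk6, Cdkn1b, Rb1 and E2f2) were followed through a study of the deacetylase Sirt7 and the transcription factor Pax5 in early mouse B cells. The 10 genes were taken by symbol from 3 RNA-seq tables that list 46078, 35896 and 18721 rows, and each table held 1 row for each of them. All 10 passed the filter for low values in every table, where 17649, 13345 and 13651 genes were tested. Pax5 ChIP–seq peaks were taken where they overlapped a gene or the 10 kb upstream of it, in 6 peak lists, and the same windows of 21951 protein-coding genes gave the background.

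The series holds 36 samples, of which 24 RNA-seq libraries and 6 peak lists were used, with 2 replicates in each group. One RNA-seq table covers the pro-B and the pre-B stage in bone marrow of 129Sv mice, wild-type (Wt) or Sirt7-/- with a germline deletion, and each mouse gave 1 library of each stage. Both stages were sorted as IgM- cells positive for B220, with CD43 present on pro-B and absent from pre-B cells. Another holds Pax5-/- progenitors on the C57BL/6 background, transduced with a retroviral vector that was empty (EV) or carried Pax5Wt, K198Q or K198R. K198Q puts glutamine in place of a lysine of Pax5 and mimics its acetylated state, and K198R puts arginine there and mimics the deacetylated state. The third table holds cultured pro-B cells, Wt with EV and Sirt7-/- with EV, Pax5Wt or K198R. The study names 129Sv as the background of its Sirt7-/- mice, for all experiments in its results and for most in its methods. The cells of these last tables were transduced populations expanded with the cytokines IL-7, SCF and FLT3-L on OP9 stromal cells. Their growth conditions were thus not those of the animal. Cells given a form of Pax5 carried it from the vector, and no Pax5 level was compared with that in the animal. The study describes the Pax5 ChIP–seq as done in Pax5-/- pro-B cells transduced with Pax5Wt, K198Q or K198R and expanded in the same way. The labels call the Pax5-/- cells bone marrow pro-B cells, whereas the methods of the study describe fetal liver progenitors. The labels give no age, and the methods describe the other donor mice as adults.

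Myc and Mycn are basic helix-loop-helix leucine zipper factors that bind DNA as dimers with Max and raise genes of growth and biosynthesis, and the Mxd factors compete with them for Max. The D cyclins, Ccnd2 and Ccnd3 in lymphocytes, bind the kinases Cdk4 and Cdk6. These complexes phosphorylate Rb1, the retinoblastoma protein, which then releases E2F factors such as E2f2 that raise the genes of DNA replication. Cdkn1b, also called p27Kip1, inhibits cyclin-dependent kinases and is high in resting cells. Early B cells divide under signals of the IL-7 receptor and of the pre-B cell receptor, and small pre-B cells leave the cycle before they rearrange their light chain genes. Pax5 commits progenitors to the B lineage.

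Values are counts per gene that the authors normalized with the median-of-ratios method, called normalized counts here. A library summed to between 50603577 and 54896194 normalized counts in the sorted cells, to between 28865461 and 30520853 in Pax5-/- cells and to between 27814214 and 30160880 in the third table. Differences are on the log2(normalized count + 1) scale and were tested with limma over all tested genes, and a gene was called at an adjusted p under 0.05. With 2 libraries against 2, the smallest two-sided p of an exact permutation test on 1 gene is 0.333, and the p-values given measure only the spread between these libraries. In such bulk samples, fewer cells of a type and less RNA per cell cannot be told apart.

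The targeted genes were read first. Sirt7 had 2692 and 2533 normalized counts in Wt pro-B cells against 363 and 366 in Sirt7-/- pro-B cells, and 5613 and 5219 in Wt pre-B cells against 1066 and 821 in Sirt7-/- pre-B cells. In the third table it had 1324 and 905 in Wt cells and between 325 and 407 in the 6 Sirt7-/- libraries, so that no Sirt7-/- library reached a Wt library of its stage. Pax5 had 2201 and 2103 normalized counts in Pax5-/- cells with EV, 6458 and 6152 with Pax5Wt, 8918 and 8963 with K198Q and 21162 and 16609.5 with K198R. The RNA of the 3 forms was thus unequal, and the part of this level in any difference between the forms was not tested. The Sirt7-/- cells had 25995 and 37114 normalized counts of Pax5 with EV, 43024 and 43259.6 with Pax5Wt and 38690.0 and 45426 with K198R.

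One field of the labels gives pro-B for all sorted libraries numbered 1 and pre-B for all numbered 2, against their titles, and the titles were used. The 6 pro-B markers (Kit, Dntt, Vpreb1, Igll1, Spn and Il7r) summed to between 96407 and 123767 normalized counts in the libraries titled pro-B and to between 22666 and 34995 in those titled pre-B. The 6 pre-B markers (Il2ra, Cd2, Bach2, Ikzf3, Irf4 and Rag1) summed to between 71179.8 and 98427 against between 161499 and 239474. The titled stages did not overlap in either sum. The Sirt7-/- mouse numbered 2 stood apart in both of its libraries. Its 6 erythroid markers summed to 47744 normalized counts at the pro-B stage and 72024 at the pre-B stage, with the globin gene Hba-a1 the most abundant, against between 5803 and 16280.2 in the other 6 sorted libraries.

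The gene positions below are those of GENCODE M21 on GRCm38, the build of mm10. Myc lies on chromosome 15 from 61985391 to 61990374 and Mycn on chromosome 12 from 12936093 to 12941914, on the minus strand. Ccnd3 spans 94641 bp of chromosome 17 from 47505051 to 47599691, and E2f2 lies on chromosome 4 from 136172394 to 136196057. The peak lists held 10646 and 11830 peaks for Pax5Wt, 3750 and 3957 for K198Q and 12158 and 13997 for K198R. Genes with a peak in both replicates made up 26.5% of the 21951 protein-coding genes for Pax5Wt, 9.79% for K198Q and 30.3% for K198R. Of the 10 genes, 6 had such a peak with Pax5Wt (Myc, Mycn, Max, Ccnd3, Cdk6 and E2f2), 3 with K198Q (Ccnd3, Cdk6 and E2f2) and 9 with K198R (all but Ccnd2). Only peak lists were at hand, with no counts, so that these numbers were not tested between forms, and the K198Q lists were the shortest throughout. The windows of the 10 genes add up to 0.622 Mb and held 17.7 peaks per Mb in both replicates of Pax5Wt, 4.82 of K198Q and 24.1 of K198R, against 5.46, 1.68 and 6.49 over all windows.

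**Figure D1:**
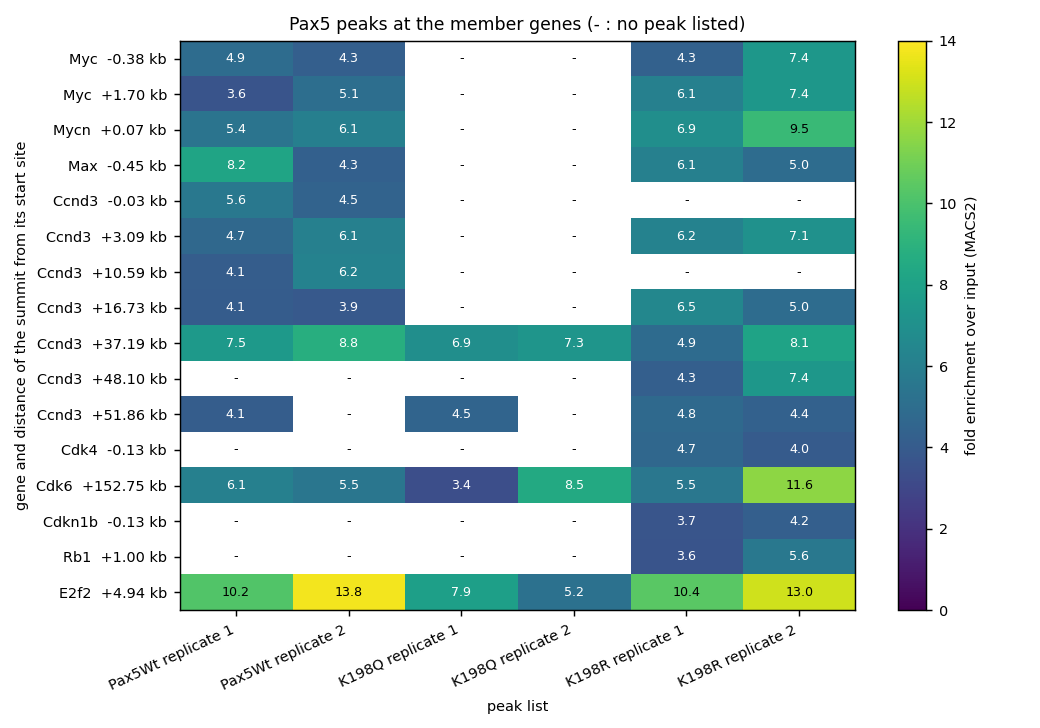
Fold enrichment over input of the Pax5 peaks at the 10 genes, as listed by MACS2, with 1 row per peak region found in both replicates of at least 1 form (gene and distance of the summit from the start site in kb) and 1 column per peak list; a dash stands for no listed peak. The regions in E2f2, in Cdk6 and at 37193 bp of Ccnd3 have a peak in all 6 lists, and the regions within 1 kb of a start site have none in either K198Q list.

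At Myc, 2 regions were listed in both replicates of Pax5Wt and of K198R and in neither K198Q list. The first, chr15:61984848-61985628, has its summit at -381 bp from the start site of Myc, with a fold enrichment of 4.94 and 4.25 in the Pax5Wt lists and 4.35 and 7.41 in the K198R lists. The second has its summit at 1698 bp, in an exon that is untranslated in at least 1 transcript. Mycn had a peak at 69 bp and Max one at -452 bp in the same 4 lists. At 3 genes a peak close to the start was in both K198R lists alone. These were Cdkn1b at -130 bp (fold enrichment 3.67 and 4.23), Cdk4 at -128 bp (4.69 and 4.01) and Rb1 at 1001 bp, in an intron (3.62 and 5.59). These 3 enrichments lay under the median of the K198R lists, 5.70 and 5.83, in each list. Another region of Rb1, at -163 bp, was in K198R replicate 1 and Pax5Wt replicate 2 alone. Within 1 kb of a start site, 4 of the 10 genes had a peak in both replicates of Pax5Wt, 6 of K198R and 0 of K198Q, against 16.9%, 20.4% and 5.63% of the 21951 genes.

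The gene of the set with the most regions was Ccnd3, with 9 in its window of 104.64 kb. Of these, 5 were in both Pax5Wt lists, 5 in both K198R lists and 1 in both K198Q lists. Its summits at -33 bp and 10585 bp were in both Pax5Wt lists and no other, and that at 48102 bp in both K198R lists and no other. The region at 37193 bp, in an intron, was in all 6 lists, with an enrichment between 4.89 and 8.76. The same held for an intron of Cdk6 at 152752 bp, between 3.38 and 11.6, and for an intron of E2f2 at 4939 bp, chr4:136177139-136178374. The E2f2 peak had an enrichment of 10.2 and 13.8 with Pax5Wt, 7.89 and 5.22 with K198Q and 10.4 and 13.0 with K198R. Ccnd2 had 3 regions, none of them in both replicates of any form. That at -2859 bp was in replicate 2 of Pax5Wt and of K198R.

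The reference bases around the summits show what the peaks that differ between the forms cover. They were read from the RefSeq sequence of GRCm38.p6 on the strand of the gene. Capitals mark matches of GCNTGAC on either strand, a core of the sequence that Pax5 is known to bind, except in the Cdk4 window, where they mark CACGTG, the sequence that Myc and Max dimers are known to bind. The windows of Myc, Max, Cdkn1b, Cdk4 and Rb1 are chr15:61984935-61985085, chr12:76962578-76962728 (minus strand), chr6:134920196-134920346, chr10:127063331-127063481 and chr14:73324746-73324896 (minus strand). Those of Ccnd3 are chr17:47504943-47505050, cut at the first exon, and chr17:47553078-47553228. The E2f2 window, chr4:136177258-136177408, was added after the peaks were seen, as the region with the highest enrichment.
Myc, Pax5Wt and K198R lists: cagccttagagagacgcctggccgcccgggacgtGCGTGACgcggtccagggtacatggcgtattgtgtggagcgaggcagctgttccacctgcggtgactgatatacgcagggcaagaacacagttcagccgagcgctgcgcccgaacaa
Max, Pax5Wt and K198R lists: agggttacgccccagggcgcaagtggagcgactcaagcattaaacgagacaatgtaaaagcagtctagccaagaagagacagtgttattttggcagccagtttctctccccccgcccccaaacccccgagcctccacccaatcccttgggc
Cdkn1b, K198R lists: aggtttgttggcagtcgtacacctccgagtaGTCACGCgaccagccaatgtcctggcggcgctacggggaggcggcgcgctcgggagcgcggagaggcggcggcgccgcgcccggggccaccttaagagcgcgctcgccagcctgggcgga
Cdk4, K198R lists: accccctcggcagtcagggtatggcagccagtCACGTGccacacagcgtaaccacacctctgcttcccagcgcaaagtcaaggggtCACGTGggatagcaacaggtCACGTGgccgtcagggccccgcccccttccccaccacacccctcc
Rb1, K198R lists: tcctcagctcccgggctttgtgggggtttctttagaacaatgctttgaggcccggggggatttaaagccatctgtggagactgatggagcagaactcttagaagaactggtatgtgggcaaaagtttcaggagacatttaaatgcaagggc
Ccnd3 at the start site, Pax5Wt lists: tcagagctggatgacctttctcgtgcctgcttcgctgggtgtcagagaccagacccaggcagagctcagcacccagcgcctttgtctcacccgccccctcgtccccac
Ccnd3 at 48102 bp, K198R lists: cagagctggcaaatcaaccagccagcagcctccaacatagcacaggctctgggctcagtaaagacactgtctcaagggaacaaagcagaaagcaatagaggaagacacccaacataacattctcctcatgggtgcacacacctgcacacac
E2f2, all lists: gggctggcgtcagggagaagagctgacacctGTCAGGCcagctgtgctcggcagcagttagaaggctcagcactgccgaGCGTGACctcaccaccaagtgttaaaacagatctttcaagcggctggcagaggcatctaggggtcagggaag

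A match of GCNTGAC lay in the windows of Myc (gcgtgac on the strand of the gene), Cdkn1b (gcgtgac on the other strand) and E2f2 (2 matches). The other printed windows hold none of these letters. Among all peaks, 13.6% and 12.8% of the Pax5Wt windows of 151 bases held a match, 16.0% and 15.6% of the K198Q windows and 12.1% and 12.1% of the K198R windows. The Cdk4 window holds CACGTG 3 times, a sequence found at least once in between 4.34% and 5.15% of the peaks of a list. RefSeq promoter windows, 250 bases before to 50 after the start, were at hand for E2f2, Ccnd3, Cdk6, Cdkn1b, Cdk4, Mycn and Max. CACGTG, which reads the same on both strands, occurred in those of Cdk6, Max and Cdk4, in the last at -172, -118, -98 and -11 bp, and in 7.15% of the 32851 promoters. The E2F-type letters TTTGGCGC, searched on both strands, occurred in the promoters of E2f2 and Mycn, and in 0.514% of all. GCNTGAC occurred in those of Cdkn1b and Ccnd3 and in 10.7% of all.

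Between the pro-B and the pre-B stage of Wt mice, the RNA of Myc, Mycn, the D cyclins and their kinases fell, and that of Cdkn1b and Rb1 rose. Of the 10 genes, 6 fell and 2 rose, where 22.0% of all tested genes fell, 18.1% rose and 40.2% were called in all. The median log2 difference of the 10 was -1.39, against -0.04 over all tested genes. In Sirt7-/- mice 4 fell (Myc, Ccnd2, Ccnd3 and Cdk6) and 3 rose (Cdkn1b, Rb1 and E2f2), where 19.2% of tested genes fell, 16.5% rose and 35.7% were called. The median of the 10 was -0.64 there, against -0.04. Scaling each library to the same total moved the median of all tested genes to -0.12 and -0.14 in the 2 comparisons, and every call among the 10 genes kept its direction under that scaling. With it E2f2 was no longer called in Sirt7-/- mice (0.28, adjusted p = 0.0567), and Cdk4 was (-0.61, adjusted p = 0.0293).

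**Figure D2:**
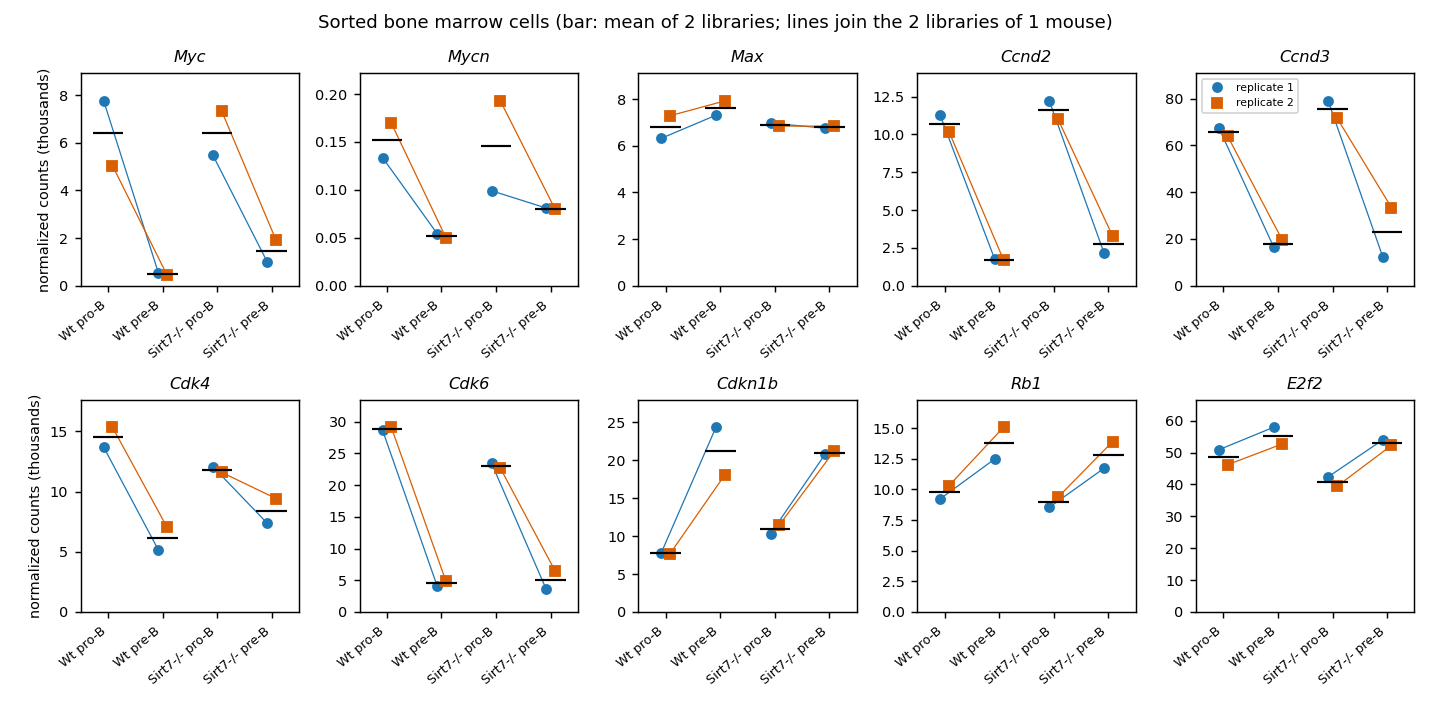
Normalized counts, in 1000, of the 10 genes in sorted pro-B and pre-B cells of Wt and Sirt7-/- mice, with 1 point per library, a bar at the mean of the 2 libraries and a line between the 2 libraries of a mouse. Myc, Ccnd2, Ccnd3, Cdk4 and Cdk6 drop along all 4 lines and Cdkn1b and Rb1 climb along all 4, while Max stays within 6317 and 7917 normalized counts.

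Myc had 7753 and 5039.9 normalized counts in Wt pro-B cells and 552 and 449 in Wt pre-B cells. It was 12.5-fold lower in pre-B cells, a log2 difference of -3.65 (SE 0.346, adjusted p = 0.000441). Without Sirt7 it had 5481 and 7339.9 at the pro-B stage and 983 and 1902 at the pre-B stage, a log2 difference of -2.21 (SE 0.346, adjusted p = 0.00372). The pro-B libraries of the genotypes overlapped, and both Sirt7-/- pre-B libraries lay above both Wt pre-B libraries, where 41.4% of all tested genes did not overlap between the genotypes in pre-B cells. Mycn, the family member of early progenitors, was low throughout. It had 134 and 169.7 normalized counts in Wt pro-B and 54.4 and 50.3 in Wt pre-B cells (log2 difference -1.51, SE 0.355, adjusted p = 0.0146). In the Sirt7-/- libraries it had 99.1 and 193 against 81.0 and 80.1, without a call (-0.77, SE 0.355, adjusted p = 0.135). Max, the common partner, had between 6317 and 7917 in all 8 libraries and was called in no comparison of the sorted cells. The difference in Max between stages was 0.16 in Wt and -0.02 in Sirt7-/- mice.

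The D cyclins and their kinases fell too. Ccnd2 had 11254.5 and 10181 normalized counts in Wt pro-B cells and 1739 and 1709 in Wt pre-B cells, 6.21-fold lower (log2 difference -2.63, SE 0.183, adjusted p = 0.000191). Ccnd3, the D cyclin known to be needed for pre-B cell expansion, had 67285 and 63803 against 16580.5 and 19467 (-1.87, SE 0.398, adjusted p = 0.00986). Cdk6 had 28637 and 29105 against 4121 and 4889.7, 6.43-fold lower (-2.68, SE 0.252, adjusted p = 0.000429). For each of these genes every pre-B library lay under every pro-B library of its genotype, where the stages did not overlap at 72.6% of all tested genes in Wt and 69.8% in Sirt7-/- mice. Cdk4, the other kinase of the pair, had 13674 and 15333 against 5165 and 7039 in Wt mice (-1.26, SE 0.175, adjusted p = 0.00165). The Sirt7-/- libraries had 12062 and 11590.1 against 7352 and 9416, where the difference of -0.51 (SE 0.175) missed the threshold with an adjusted p of 0.0609, whereas the fit with the mouse as a block gave 0.0355, where 38.5% of all tested genes were called. DESeq2 on whole reads called it too (-0.49, adjusted p = 0.0343), where DESeq2 called 38.6% of all tested genes, and edgeR did not.

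Without Sirt7, Ccnd2 had 12209 and 10991 normalized counts at the pro-B stage and 2183 and 3279.9 at the pre-B stage, a log2 difference of -2.11 (adjusted p = 0.000508). Ccnd3 had 79001 and 71756 against 12345 and 33397 (-1.89, adjusted p = 0.0113), the widest gap between pre-B replicates among the 10 genes in the sorted cells. Cdk6 had 23397 and 22652.5 against 3561 and 6499 (-2.26, adjusted p = 0.00114). In each of these genes the pre-B library of the mouse with high erythroid markers was the higher of the 2. Without that library, Cdk4 passed the threshold (log2 difference -0.69) and Rb1 did not, and fewer of all tested genes were called. Wherever 1 library is left out, its group holds 1 library, which the fit takes to vary like those of the other groups. Without Sirt7-/- pro-B replicate 1, Mycn was called (-1.25, adjusted p = 0.0463).

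Cdkn1b, the kinase inhibitor of resting cells, rose. It had 7837 and 7698 normalized counts in Wt pro-B cells and 24349 and 18049 in Wt pre-B cells, 2.70-fold higher (log2 difference 1.43, SE 0.140, adjusted p = 0.000481). The Sirt7-/- mice had 10324.5 and 11457 against 20787 and 21159.5, 1.93-fold higher (0.95, SE 0.140, adjusted p = 0.00300). Both Sirt7-/- pro-B libraries lay above both Wt pro-B libraries, where 39.3% of all tested genes did not overlap between the genotypes. Rb1 rose less, from 9237 and 10305 to 12487 and 15077 in Wt mice (0.49, SE 0.132, adjusted p = 0.0237) and from 8543 and 9372 to 11721 and 13906.5 in Sirt7-/- mice (0.51, adjusted p = 0.0229). E2f2 had 50913 and 46208 in Wt pro-B and 57945 and 52719 in Wt pre-B cells (0.19, adjusted p = 0.126), and rose in Sirt7-/- mice from 42397.5 and 39403 to 53981.5 and 52265 (0.38, SE 0.0862, adjusted p = 0.0150). E2f2 was thus lower in pre-B cells in neither genotype, unlike the E2F targets described next.

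Some of these calls were lost when 1 library was left out. Each such fit leaves a group with 1 library, and each called fewer of all tested genes than the fit of all libraries. In Wt mice Mycn was no longer called without pre-B replicate 1 (adjusted p = 0.0527), pre-B replicate 2 (0.0644) or pro-B replicate 2 (0.0856), Ccnd3 without pre-B replicate 1 (0.0564) or pro-B replicate 1 (0.0530), and Rb1 without pre-B replicate 2 (0.119), pro-B replicate 1 (0.122) or pro-B replicate 2 (0.0547). In Sirt7-/- mice the same held for Ccnd3 without pro-B replicate 1 (0.0575), for Rb1 without pre-B replicate 2 (0.0961), pro-B replicate 1 (0.113) or pro-B replicate 2 (0.0614), and for E2f2 without pre-B replicate 1 (0.0694) or pro-B replicate 2 (0.0893). In a fit without a trend of the variance, Rb1 was called in neither genotype (0.0644 and 0.0634) and E2f2 was not called in Sirt7-/- mice (0.0620), and in a fit of the 2 Sirt7-/- groups alone Ccnd3 was not (0.0572).

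The rest of the pathway was read from lists of other genes. Over all tested genes 22.0% fell and 18.1% rose in Wt mice, and 19.2% fell and 16.5% rose in Sirt7-/- mice. All 16 E2F targets of S phase entry fell in Wt and in Sirt7-/- mice, with medians of -1.69 and -1.14. Tyms, which makes thymidylate, had 3719 and 3966 normalized counts in Wt pro-B and 611 and 977 in Wt pre-B cells (log2 difference -2.31), and Mcm6, a subunit of the replicative helicase, 18333 and 20095 against 4338 and 4851.5 (-2.06). Of 15 Myc targets of growth, 13 fell in Wt and 13 in Sirt7-/- mice, led by Srm, the spermidine synthase, with 4695 and 4330.3 against 573 and 423 in Wt mice (-3.19) and 4913 and 4938.5 against 804 and 1213 in Sirt7-/- mice (-2.32). The transferrin receptor gene Tfrc alone rose among them, in Wt mice, and not without Wt pre-B replicate 1 or 2 or pro-B replicate 2. All 10 proliferation markers fell in both genotypes, with medians of -1.68 and -1.10, and their sum of normalized counts was between 221581 and 265193 in pro-B and between 66273 and 137194 in pre-B libraries. T cell markers were lower in pre-B cells too, 8 of 10 in Wt and 6 of 10 in Sirt7-/- mice, led in abundance by Lck and summing to between 6835 and 7391 in pro-B and between 3195 and 3905 in pre-B libraries, where Cd3e and Cd3g were at 0. Of 8 myeloid markers, Ly6g, Lyz2 and Csf1r fell in both genotypes and Mpo in Sirt7-/- mice, while Itgam rose in both. Their sum was 33696 and 24627 in Wt pro-B, 15217 and 14887 in Wt pre-B, 27048 and 9554 in Sirt7-/- pro-B and 11503 and 10680.4 in Sirt7-/- pre-B libraries. Of 8 markers of mature B and plasma cells, Fcer2a, Cr2, Ighd, Cd22 and Sdc1 rose and Jchain fell in both genotypes. Ighd led this list in pre-B libraries, where it summed to between 92177 and 203214, against between 44045 and 82764 in pro-B libraries. Of 7 NK cell markers, Eomes fell in Wt mice, and 0 were called in Sirt7-/- mice. With 1 library left out, 16 of the E2F targets, 13 of the Myc targets and 10 of the proliferation markers were still lower in Wt mice, and in Sirt7-/- mice at least 15 and 12 of the first 2 lists. Fewer proliferation markers were called lower there without pre-B replicate 1, pro-B replicate 1 or pro-B replicate 2, the last from the mouse with high erythroid markers. In each of these fits fewer of all tested genes were called lower too. The part of these other cell types in the changes between stages was not tested.

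The counts of the next lists are those of the fit of all libraries, unless a library is said to be left out. In that fit 18.1% of all tested genes rose and 22.0% fell in Wt mice, and 16.5% and 19.2% in Sirt7-/- mice. Among the other genes of the Myc network, 6 of 10 rose and 1 fell in Wt mice, and 5 rose and 1 fell in Sirt7-/- mice. Mxd4, a competitor of Myc for Max, had 5150.0 and 7192 normalized counts in Wt pro-B and 15042 and 18937 in Wt pre-B cells (log2 difference 1.47), and Mxd3, which fell, is known from dividing cells. Fewer of them rose in Wt mice without pro-B replicate 2, and in Sirt7-/- mice without either library numbered 1 or without pro-B replicate 2. Fewer of all tested genes rose in each of these fits too. Mxd3 missed the threshold in Sirt7-/- mice without any 1 library (adjusted p between 0.0542 and 0.0819). Of 7 other cyclins and kinases of this step, 4 fell in each genotype, with Ccne1, cyclin E1, at -1.98 and -1.09. Fewer of these fell in Wt mice without pre-B replicate 1 or pro-B replicate 2, and in Sirt7-/- mice without pre-B replicate 1 or either pro-B library. So did fewer of all tested genes. Of 5 other kinase inhibitors tested, 2 fell in each genotype and 0 rose. Cdkn1a, the inhibitor known as a p53 target, had 3136 and 3982.5 normalized counts in Wt pro-B cells against 687 and 916 in Wt pre-B cells (-2.15). Of 11 other pocket proteins and E2F or Dp factors, 8 fell and 1 rose in Wt mice and 7 fell and 1 rose in Sirt7-/- mice. Rbl2, the pocket protein of resting cells, was the one that rose (with another in Wt mice without pro-B replicate 1), and the fall was largest for Tfdp1, a partner of E2F factors, at -1.95 and -1.45.

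**Figure D3:**
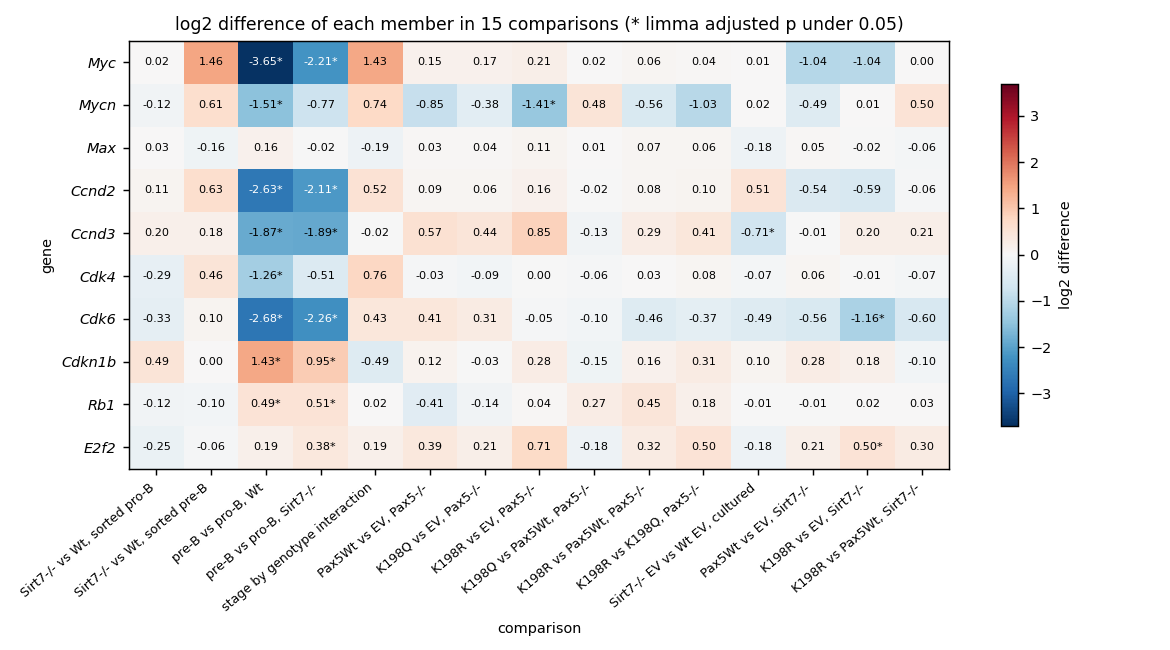
Log2 difference of each gene (rows) in each of the 15 comparisons (columns), on a scale from blue (lower in the first group named) to red (higher), with an asterisk at a limma adjusted p under 0.05. The 2 stage columns hold 15 of the 19 asterisks, and the remaining 4 stand at Mycn, Ccnd3, Cdk6 and E2f2 in cultured cells.

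Loss of Sirt7 was asked about at each stage. In pro-B cells limma called 0 of the 10 genes, where 0.0623% of all tested genes were called, and 2 had an unadjusted p under 0.05, as did 5.94% of all tested genes. The count was 0 with edgeR and with DESeq2 on whole reads. The 2 genes were Cdkn1b, at a log2 difference of 0.49 (SE 0.140, adjusted p = 0.691), and E2f2, at -0.25 (SE 0.0862, adjusted p = 0.776). The median of the 10 was -0.05, against 0 over all genes. Of the 6 pre-B markers Il2ra was called lower in Sirt7-/- pro-B cells, and the median of the 6 was -0.445. The myeloid markers summed to 33696 and 24627 normalized counts in the Wt and 27048 and 9554 in the Sirt7-/- pro-B libraries. Sirt7-/- replicate 2 was the library with high erythroid markers. The part of all these markers in these differences was not tested.

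In pre-B cells limma also called 0 of the 10, where 0.085% of all tested genes were called, and 3 had an unadjusted p under 0.05 (Myc, Ccnd2 and Cdk4), as did 13.6% of all tested genes. Myc was 2.74-fold higher in Sirt7-/- pre-B cells, a log2 difference of 1.46 (SE 0.346, adjusted p = 0.165). Ccnd2 was higher by 0.63 (SE 0.183, adjusted p = 0.225) and Cdk4 by 0.46 (SE 0.175, adjusted p = 0.314), and neither overlapped between the genotypes. Of the 10 genes 5 did not overlap, near the 41.4% over all tested genes. With edgeR the count was 0, and with DESeq2 it was 2, where DESeq2 called 4.12% of all tested genes. These 2 were Myc (1.52, DESeq2 adjusted p = 0.000676) and Ccnd2 (0.66, adjusted p = 0.0297). The higher Sirt7-/- library in Myc, Ccnd2 and Cdk4 was that with 72024 normalized counts of erythroid markers. It also had the most proliferation marker counts of the pre-B libraries, 137194, against 89093 in its replicate and 66273 and 97126 in Wt. The 6 pro-B markers, none of them called, had a median log2 difference of 1.146 between the genotypes in pre-B cells, against 0.02 over all tested genes. They summed to 23019 and 34995 normalized counts in the Sirt7-/- and 22666 and 31765 in the Wt libraries, led by Il7r. The 7 NK cell markers, with 0 called, had a median of 2.04 and summed to 159.9 and 953.5 against 359.7 and 190.2. The erythroid, myeloid and stroma markers, with 0 called in each list, had medians of 1.78, -1.44 and -1.56. In the pro-B and the NK list the library with 72024 normalized counts of erythroid markers had the highest sum. The part of all these markers in the differences of the 10 genes was not tested, and neither was that of this library. Leaving out 1 Sirt7-/- pre-B library leaves that group with 1 library. Without replicate 1, the library poorer in erythroid markers, the log2 difference was 0.93 for Ccnd2 and 0.89 for Ccnd3.

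Among the lists, 0 genes of the Myc targets, E2F targets or proliferation markers were called by limma in pre-B cells. Their median log2 differences were 0.28, 0.52 and 0.47 in that order, beside 0.02 over all tested genes. Srm had 804 and 1213 normalized counts in Sirt7-/- and 573 and 423 in Wt pre-B cells, a log2 difference of 1.002 (adjusted p = 0.157). Cdc6, which loads the replicative helicase, had 2158 and 2992 against 1446 and 1483 (0.79, adjusted p = 0.157). The interaction of stage and genotype asks whether the fall between stages itself differed. Limma called it at 1 gene of all tested, 0.00567%, and DESeq2 at 0.589% of them, and limma, edgeR and DESeq2 each at 0 of the 10. In limma 3 of the 10 had an unadjusted p under 0.05, as did 5.43% of all tested genes. The fall of Myc was smaller in Sirt7-/- mice by 1.43 on the log2 scale (SE 0.490, adjusted p = 0.862) and that of Cdk4 by 0.76 (SE 0.247, adjusted p = 0.848), and the rise of Cdkn1b was smaller, at -0.49 (SE 0.198, adjusted p = 0.901).

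**Figure D4:**
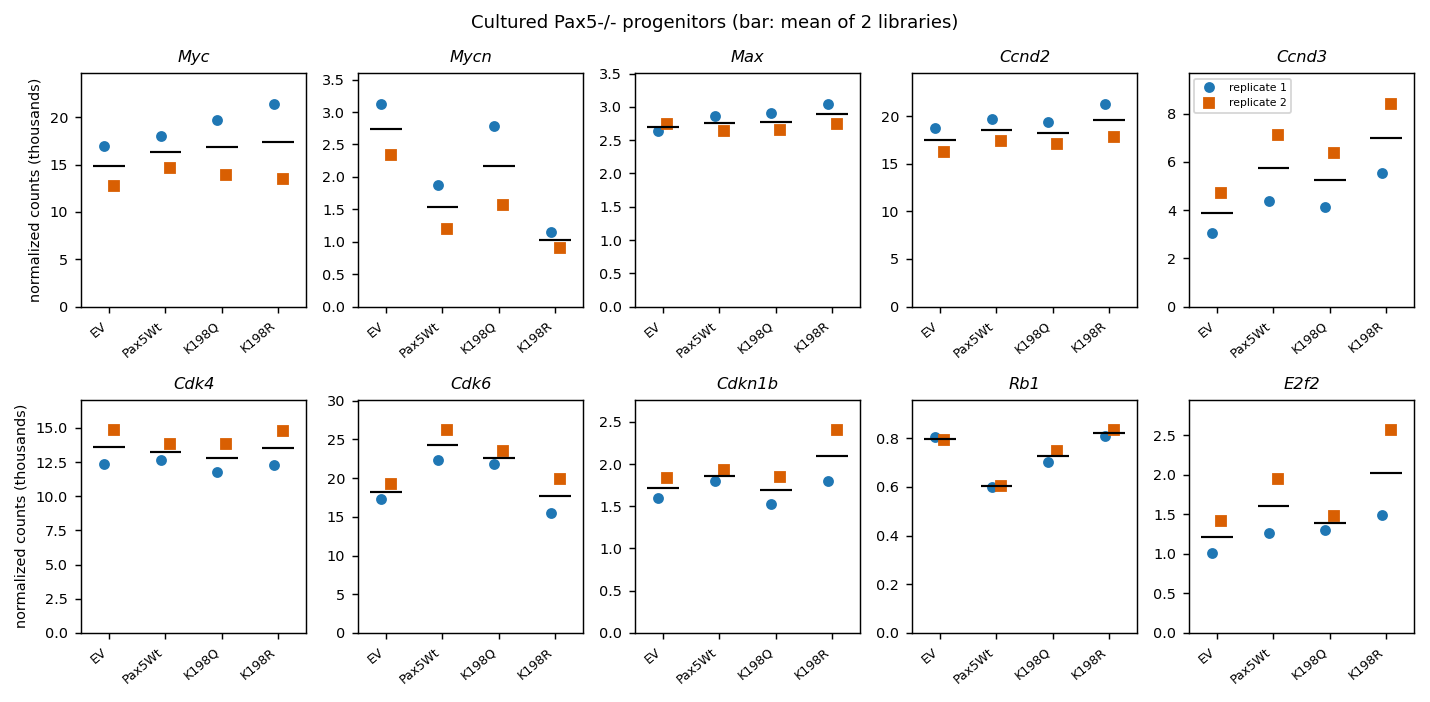
Normalized counts, in 1000, of the 10 genes in Pax5-/- cells with EV, Pax5Wt, K198Q or K198R, with 1 point per library and a bar at the mean of the 2 libraries. Mycn is lowest with K198R in both replicates, and Rb1 is lowest with Pax5Wt, at 601 and 605 normalized counts.

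In Pax5-/- cells the question was how each form of Pax5 changed these genes. Mycn was the 1 gene called without the replicate number as a block, lower with K198R, where 9.92% of all tested genes were called. With that block more of the 10 genes were called in these libraries, as given beside each. It had 3129 and 2343 normalized counts with EV, 1872 and 1198 with Pax5Wt, 2782 and 1564 with K198Q and 1149.7 and 901 with K198R. With K198R it was 2.66-fold lower than with EV, a log2 difference of -1.41 (SE 0.3125, adjusted p = 0.0289), -1.44 and -1.38 within the replicate numbers. It was no longer called without EV replicate 1 (adjusted p = 0.169), EV replicate 2 (0.0755) or K198R replicate 2 (0.128), and in a fit without the filter on low values (0.0625) or without the trend (0.0817). Against EV the difference was -0.85 with Pax5Wt (SE 0.3125, adjusted p = 0.246, and 0.00396 with the block) and -0.38 with K198Q (SE 0.3125, adjusted p = 0.9997). K198R against K198Q gave -1.03 (SE 0.3125, adjusted p = 0.125, and 0.00172 with the block), and K198R against Pax5Wt -0.56 (adjusted p = 0.570, and 0.0276 with the block). The comparisons with EV share its 2 libraries. Myc, in the same libraries, differed from EV by between 0.15 and 0.21, within the spread of the replicates.

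Markers of other cell types differed in the same contrast of K198R and EV. Of the 5 T cell markers tested, Cd3g, Thy1 and Zap70 fell (median of the 5 -1.64, against 0.01 over all tested genes), and the 10 listed summed to 3091 and 4033 normalized counts with EV and 2322 and 3008 with K198R, led by Lck. Of the 4 NK cell markers tested Nkg7 fell (median -1.92), and the sum went from 529 and 628 to 141 and 91.3. Of the 4 myeloid markers tested Mpo and Csf1r fell and Lyz2 rose (median -2.01), with a sum of 1011 and 729.99 with EV and 655 and 408 with K198R, led by Itgam. Of the 6 pre-B markers, Rag1, Ikzf3, Irf4, Bach2 and Il2ra rose and Cd2 fell (median 1.202). Of 5 pro-B markers tested Igll1 rose, and of 7 stroma markers Pdgfrb fell. Of 6 markers of mature B and plasma cells tested, Cr2 and Cd22 rose and Jchain fell. Over all tested genes 9.92% were called in this contrast. The part of these cell types in the differences of the 10 genes was not tested.

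With Pax5Wt against EV limma called 0 of the 10, where 3.25% of tested genes were called, and 3 had an unadjusted p under 0.05 (Mycn, Cdk6 and Rb1), as did 14.4% of tested genes. With K198Q against EV it called 0, where 0.922% were called, and 0 had such a p, against 7.86% of tested genes. K198Q and Pax5Wt differed at 0 of the 10, where 0.0225% were called, with 1 at an unadjusted p under 0.05, against 3.46% of tested genes. K198R and Pax5Wt differed at 0, where 2.87% were called, with 2 at such a p, against 12.7% of tested genes. K198R and K198Q differed at 0, where 5.01% were called, with 2 at such a p, against 16.9% of tested genes. With the block limma called 4 of the 10 with Pax5Wt against EV (Mycn, Ccnd3, Cdk6 and Rb1), where 10.1% of tested genes were called, and 1 with K198Q against EV (Ccnd3), where 2.72% were called. It called 3 with K198R against EV (Mycn, Ccnd3 and E2f2), where 21.2% were called. Between the forms it called 4 with K198R against Pax5Wt (Mycn, Ccnd3, Cdk6 and Rb1), where 7.52% were called, 4 with K198R against K198Q (Mycn, Ccnd3, Cdk6 and E2f2), where 13.1% were called, and 0 with K198Q against Pax5Wt, where 0.217% were called. Markers of T, NK, myeloid and stroma cells were called with the block too. With Pax5Wt against EV Zap70, Nkg7, Mpo, Csf1r, Itgam and Pdgfrb fell, and Thy1 and Lyz2 rose. With K198R against Pax5Wt Cd3g, Thy1, Nkg7, Gzma, Mpo and Pdgfrb fell. With K198R against K198Q the same genes and Zap70, Csf1r and Itgam fell, and Lyz2 rose. The part of these markers was not tested. No second tool was run in this table, since whole reads could not be recovered from it.

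Rb1 had the closest replicates of the 10 genes in this table. It had 805 and 792 normalized counts with EV, 601 and 605 with Pax5Wt, 704 and 747 with K198Q and 809 and 834 with K198R. Pax5Wt lay under every other group, by -0.41 against EV (SE 0.109, adjusted p = 0.107, and 0.0286 with the block), and K198R exceeded it by 0.45 (SE 0.109, adjusted p = 0.0887, and 0.0246 with the block). Cdk6 had 17272 and 19224 with EV, 22355 and 26226 with Pax5Wt, 21803 and 23447 with K198Q and 15516 and 19853 with K198R. K198R against Pax5Wt differed by -0.46 (SE 0.141, adjusted p = 0.178, and 0.00932 with the block). Pax5Wt against EV gave 0.41 (adjusted p = 0.211, and 0.0124 with the block), and K198R against K198Q -0.37 (adjusted p = 0.234, and 0.0163 with the block). Pax5Wt and K198Q lay above EV in both libraries, and K198R overlapped EV. Over all tested genes 42.6% did not overlap between Pax5Wt and EV, 34.2% between K198Q and EV, 28.7% between K198Q and Pax5Wt and 38.4% between K198R and Pax5Wt.

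Ccnd3 had 3042 and 4705 normalized counts with EV, 4399 and 7134 with Pax5Wt, 4133 and 6358 with K198Q and 5548 and 8417 with K198R. The replicate numbers of each group lay further apart than most groups, with replicate 1 between 0.617 and 0.659 times replicate 2 in all 4. Within a number the order was the same, with log2 differences from EV of 0.53 and 0.60 with Pax5Wt, 0.44 and 0.43 with K198Q and 0.87 and 0.84 with K198R, and adjusted p-values of 0.546, 0.988 and 0.174, which with the block were 0.00123, 0.00894 and 9.2e-05. With the block K198R also exceeded Pax5Wt (adjusted p = 0.0257) and K198Q (adjusted p = 0.00409). E2f2 had 1015 and 1418 with EV and 1491 and 2569 with K198R (0.71, SE 0.299, adjusted p = 0.211, and 0.007865 with the block), and K198R against K198Q gave 0.50 (adjusted p = 0.488, and 0.0467 with the block). Ccnd2, Cdk4, Cdkn1b and Max differed from EV by between -0.09 and 0.28 with any form. Ccnd3 was thus higher with each form than with EV in both numbers, a difference called with the replicate number as a block and not without it.

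Of the other genes of the pathway, Cdkn2a, which encodes 2 inhibitors of growth, rose with every form. It had 63.2 and 88.4 normalized counts with EV, 247 and 398 with Pax5Wt, 374 and 343 with K198Q and 168 and 313 with K198R. The log2 differences were 2.05, 2.25 and 1.60 (SE 0.352 each, adjusted p = 0.0242, 0.0330 and 0.0277). Each of the 3 calls was lost without either EV library (adjusted p between 0.0714 and 0.245), without the filter (between 0.0554 and 0.0889) and without the trend (between 0.0642 and 0.105). Those of Pax5Wt and K198Q were also lost without either library of the form (between 0.0622 and 0.265), and that of K198R without its replicate 2 (0.112) or with the 2 groups alone (0.0813). Mxd4 fell with K198R against EV, by 0.42 on the log2 scale (adjusted p = 0.0338), and against K198Q, by 0.53 (adjusted p = 0.0242), from 5994 and 5825 with EV to 4453 and 4379 with K198R. The call against EV was lost without any 1 of the 4 libraries (between 0.0721 and 0.157) and without the filter (0.0564), and that against K198Q without either K198Q library (0.169 and 0.110) or K198R replicate 2 (0.0933). Both were lost without the trend or with the 2 groups alone (between 0.0751 and 0.0925). No other gene of the lists of the Myc network, of cyclins, inhibitors, pocket proteins, E2F targets, Myc targets or proliferation markers was called in these 6 comparisons without the replicate number as a block. The median of the 16 E2F targets was 0.34 with K198R against EV, against 0.01 over all tested genes, and 0 of them were called. With the block 11 of the 16 rose with K198R against EV, among them Mcm2, Cdc6, Rrm2 and Tyms, where 21.2% of tested genes were called in either direction. With K198R against K198Q 7 of them rose, and with K198R against Pax5Wt (Pcna) and Pax5Wt against EV (Mybl2) 1 each. With the block E2f7 and Rbl1 also rose with Pax5Wt and with K198R against EV, and E2f5 with K198R, and E2f7 with K198R against K198Q. Ccnd1 rose with K198R against Pax5Wt and against K198Q, and Mxd4 fell with K198R against Pax5Wt as well as in the comparisons above. Cdkn1a, which encodes the inhibitor p21, fell with K198R against EV and against K198Q, and Tfrc was the 1 Myc target called, lower with Pax5Wt and with K198R. Of the 10 proliferation markers 0 were called with the block.

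**Figure D5:**
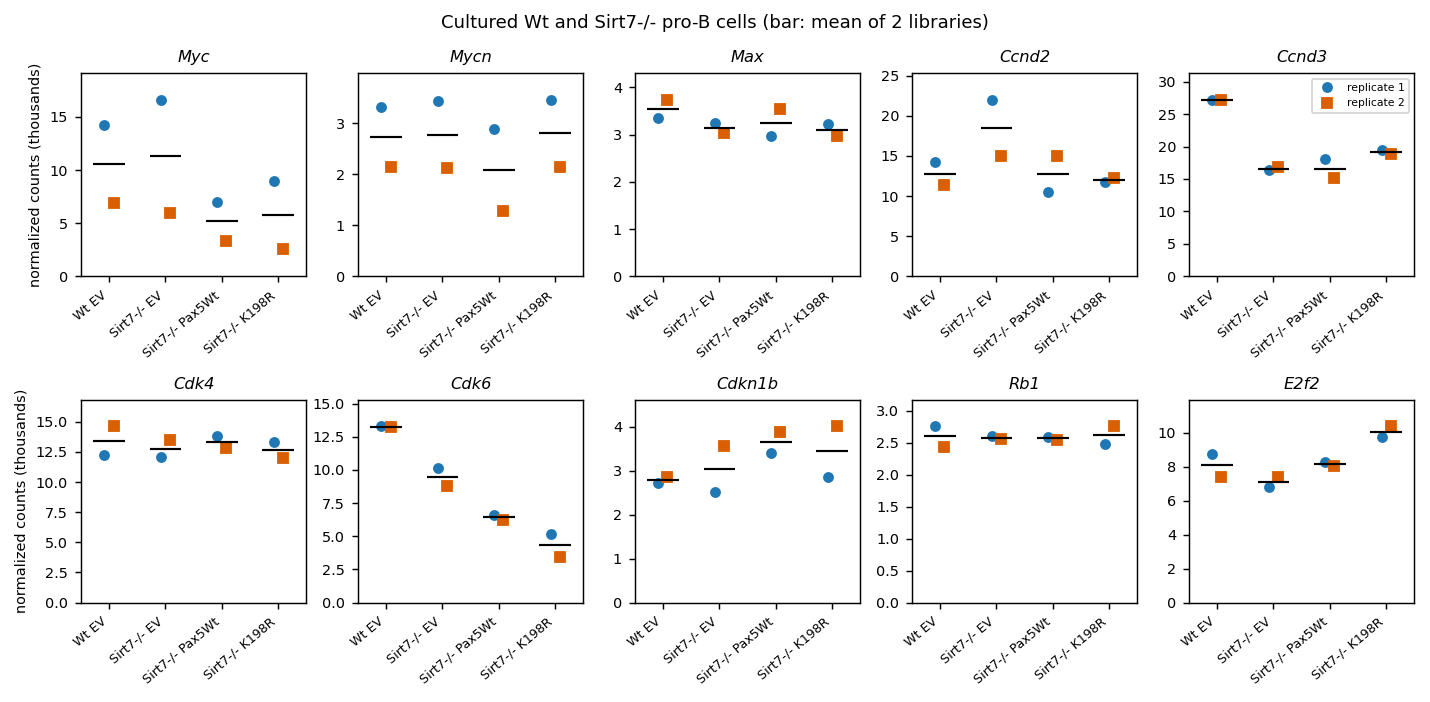
Normalized counts, in 1000, of the 10 genes in cultured pro-B cells, Wt with EV and Sirt7-/- with EV, Pax5Wt or K198R, with 1 point per library and a bar at the mean of the 2 libraries. Ccnd3 is higher in Wt than in all 6 Sirt7-/- libraries, Cdk6 steps down from Wt to K198R, and replicate 1 of Myc lies above replicate 2 in every group.

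In cultured cells without Sirt7, Ccnd3 was lower. It had 27218 and 27158 normalized counts in Wt and 16379.6 and 16845 in Sirt7-/- cells with EV, 1.64-fold lower, a log2 difference of -0.71 (SE 0.108, adjusted p = 0.0396). It was the 1 gene of the 10 called, where 0.557% of tested genes were called, and 2.11% with the replicate number as a block, which kept its call (adjusted p = 0.0163). The call was lost without any 1 of the 4 libraries, at an adjusted p of 0.265 and 0.228 without Sirt7-/- replicate 1 or 2 and of 0.09999 and 0.167 without Wt replicate 1 or 2, with the difference between -0.73 and -0.69, and also without the filter (0.0762), without the trend (0.113) or with the 2 groups alone (0.159). Among sorted pro-B cells Ccnd3 differed by 0.20 (SE 0.398) in the other direction, without a call. Cdk6 had 13313 and 13219 in Wt and 10114 and 8827 in Sirt7-/- cells with EV (-0.49, SE 0.179, adjusted p = 0.407), and Myc differed by 0.01. Of 5 pro-B markers tested Il7r was called lower in this contrast, and of 7 markers of mature B and plasma cells Cd22 was higher. With the block Rag1 was lower too, and Nkg7 and Ighd were higher. The part of these markers in the Ccnd3 level was not tested.

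With K198R in Sirt7-/- cells, Cdk6 fell and E2f2 rose. Cdk6 had 6591 and 6249 normalized counts with Pax5Wt and 5205 and 3443 with K198R. K198R against EV gave a log2 difference of -1.16 (SE 0.179, adjusted p = 0.0146), a 2.23-fold decrease that was -0.96 and -1.36 within the replicate numbers. Pax5Wt against EV gave -0.56 (SE 0.179, adjusted p = 0.349). E2f2 rose with K198R, from 6809 and 7394 to 9735 and 10405.5 (0.50, SE 0.108, adjusted p = 0.0413), and had 8288 and 8079 with Pax5Wt. These were the 2 of the 10 genes called with K198R against EV, where 4.83% of tested genes were called. With the replicate number as a block 11.6% of tested genes were called there, and 3 of the 10, Myc besides these. Cdk6 was no longer called without EV replicate 1 (adjusted p = 0.103), EV replicate 2 (0.0607) or K198R replicate 2 (0.0557), and E2f2 without any 1 of the 4 libraries (between 0.119 and 0.250). Without the trend both missed the threshold (0.0545 and 0.108), and without the filter E2f2 did (0.0667). Markers of other cell types and stages were called with K198R against EV too. Lck fell (3 T cell markers tested, median -1.735), as did Lyz2 (3 myeloid, -1.615), Il7r (5 pro-B) and Il2ra (6 pre-B). Of 7 markers of mature B and plasma cells, Ighd rose and Prdm1 and Jchain fell. The median over all tested genes was 0.01. The part of these markers in the changes of Cdk6 and E2f2 was not tested.

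Limma called 0 of the 10 with Pax5Wt against EV, where 0.0366% of tested genes were called, and 0 with K198R against Pax5Wt, where 0.425% were called. In each, 2 had an unadjusted p under 0.05, as did 9.91% and 8.78% of tested genes, and no second tool was run. With the block it called 1 (Myc), where 1.96% were called, and 0, where 2.3% were called. Among markers of other cell types and stages, the block called Lck, Thy1 and Dntt lower and Kit, Cd22 and Ighd higher with Pax5Wt against EV. With K198R against EV it called Thy1, Dntt, Spn, Irf4 and Rag1 lower and Kit, Nkg7 and Cd22 higher, besides those named above. The part of these markers in the Myc level was not tested. Myc had 14283 and 6861 normalized counts in Wt, 16622 and 5976 in Sirt7-/- cells with EV, 6994 and 3355 with Pax5Wt and 9016 and 2613 with K198R. Its replicates lay further apart than its groups, and the difference from EV of -1.04 with each form had an SE of 0.701 (adjusted p = 0.720 with Pax5Wt and 0.504 with K198R, and 0.0357 and 0.00908 with the block). Within the replicate numbers it was -1.25 and -0.83 with Pax5Wt and -0.88 and -1.19 with K198R. Ccnd2 had 22008 and 15002 with EV and between 10492 and 14952 with either form. Max, Rb1 and Cdk4 differed by between -0.18 and 0.06 on the log2 scale in the 4 comparisons of this table.

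Of the other pathway genes in this table, 1 was called without the replicate number as a block. With it, Mxd1, Ccne1 and E2f8 rose besides with K198R against EV, and 0 of the 16 E2F targets were called in the 4 comparisons. Ccnd1, the D cyclin that lymphocytes express little of, had 46.0 and 111.5 normalized counts in Sirt7-/- cells with EV, 115 and 305 with Pax5Wt and 399 and 417 with K198R, a log2 difference of 2.49 between K198R and EV (SE 0.555, adjusted p = 0.0465). The call was lost without any 1 of the 4 libraries (adjusted p between 0.0673 and 0.234), without the filter (0.0888) and without the trend (0.106). Stroma markers, led by Cxcl12, summed to 3246 and 5066 normalized counts with EV, 5759.7 and 11833 with Pax5Wt and 4343 and 9054 with K198R, and 4952 and 3709 in Wt. All 7 were above 0 in each library. The part of the feeder cells in the Ccnd1 level was not tested.

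The replicate number went with the level of several genes in culture, and the methods of the study state that replicates were made on different days. In Pax5-/- cells Myc was higher in replicate 1 of all 4 groups, by 1.23 to 1.595 times, and in the third table by 2.08 to 3.45 times. Mycn was higher in replicate 1 of all 8 groups, by 1.28 to 1.78 and 1.55 to 2.27 times. Cdkn1b was lower in replicate 1 of all 8 groups, between 0.748 and 0.933 and between 0.707 and 0.953 times replicate 2. Myc and the kinase inhibitor Cdkn1b thus differed in opposite directions between the numbers. Ccnd3 was lower in replicate 1 of all 4 groups of Pax5-/- cells, and between 0.972 and 1.19 times replicate 2 in the third table.

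Per kb of exon, the balance of the paired genes differed between the settings, with tables that were normalized separately. The level of Ccnd3 was between 13.75 and 27.7 times that of Ccnd2 in the 8 sorted libraries, between 0.394 and 1.146 times in Pax5-/- cells and between 1.81 and 5.83 times in the third table. The level of Cdk4 was between 2.35 and 2.59 times that of Cdk6 in sorted pro-B cells and between 6.16 and 10.15 times in pre-B cells. In the third table it was 4.51 and 5.45 times in Wt cells and 12.6 and 17.2 times in Sirt7-/- cells with K198R. Myc had between 30.65 and 59.85 times the level of Mycn in sorted pro-B cells and between 1.25 and 4.999 times in the third table. In the sorted libraries the level of Cdkn1b ran from 1.03 times that of Ccnd2 in Wt pro-B replicate 1 to 20.7 times in Wt pre-B replicate 1, and in culture it lay between 0.117 and 0.199 times in Pax5-/- cells and between 0.170 and 0.484 times in the third table.

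Over the 24 libraries, centred on the log2 scale within each table, Myc went with Ccnd2 (Pearson r = 0.88) and against Cdkn1b (r = -0.85). Within the tables the first was 0.98, 0.95 and 0.42 and the second -0.86, -0.59 and -0.94, in the sorted, the Pax5-/- and the third table in turn. Among the 10609 genes tested in all tables, those most like Myc were Nlrc3 (r = 0.95), Ubash3a (0.95), Tmem150b (0.94), Ptpn7 (0.94) and Dkkl1 (0.94). Ubash3a had an r of 0.0553 in the Pax5-/- table alone. Those most like Mycn were Tm6sf1 (0.85), Rsph3b (0.84), Ubxn8 (0.83), Cdh24 (0.83) and Pxn (0.82). These values are descriptions over libraries that share stages, days and tables.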

How the data were processed

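RNA-seq was measured in 24 libraries and Pax5 ChIP–seq in 6 peak lists. The 10 genes, the lists and the tests were chosen with earlier results of these data known. Transcripts of mm10 were quantified by the authors in Salmon, corrected for GC bias and imported with Tximeta, and the counts they deposited were scaled with size factors of DESeq2 (median of ratios), a signal whose scale was set in each table separately. In the sorted table whole reads could be recovered (100% of values within 0.01 of a whole number, 50004827 to 55536608 reads per library), and the depth behind the other tables is not known. The ChIP–seq reads were mapped with Bowtie2 and cleared of duplicates, peaks were called per replicate against input with MACS2, and the authors deposited the fold enrichment and the −log10 p and q of each peak. No versions of these tools are given in the sources used here.

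Genes that reached 10 normalized counts in 2 or more libraries of their table were tested with limma 3.58.1 in R 4.3.3, with a trend of the variance and the 4 groups in 1 fit, on log2(normalized count + 1), and p-values were adjusted by Benjamini-Hochberg over all tested genes and called under 0.05. This scale understates the change of low genes. On whole reads, edgeR 4.0.16 and DESeq2 1.42.0 were alternatives. Other alternatives were the pseudocount, the filter, the scaling, the trend, the replicate block, the groups in the fit and each replicate left out. The mouse pairs the stages of the sorted cells (correlation of deviations 0.0798 in Wt and 0.156 in Sirt7-/- mice), so the block is given where it changes a call. In culture the pairing is by replicate number, which rests on the different days of the study's methods and on same-numbered libraries deviating together (correlations of 0.156 to 0.428), and the block is given in the same way. The counts of list genes without 1 library were added after seeing the data. The steps were tested on simulated data.

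Besides the 10 genes, the text names Sirt7 and Pax5, up to 3 called genes of each pathway list per comparison by size of the log2 difference, or up to 2 uncalled ones whose mean reached 100 normalized counts, and the 5 genes with the highest Pearson r to Myc and to Mycn. Genes outside this rule that the text names were chosen after their values were seen. Rows with no gene symbol (9658 and 1745 in 2 tables) were not tested by name. A peak belonged to a gene where it overlapped the gene or 10 kb upstream in GENCODE M21, by at least 1 base. Sequences are RefSeq GRCm38.p6, read with Python 3.11.15. In 1 K198R list the peak names carry another replicate number than the sample label, and the label was used. The authors' own comparisons were not used. One marker and the counts of the list that holds it are not reported here.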

Additional observations from a re-analysis of the deposited data

Results flagged for a closer look

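In 3 results the libraries of one setting lay above and those of the other under their controls in the same contrast, with 0 of the 6 differences called without a replicate block. Cdk4 in Sirt7-/- against Wt libraries differed by -0.292 on the log2 scale at the pro-B (limma adjusted p = 0.923) and by 0.465 at the pre-B stage (0.314), and the interaction of 0.76 had a limma adjusted p of 0.848. Max differed between pre-B and pro-B libraries by 0.165 in Wt (limma adjusted p = 0.212) and by -0.0239 in Sirt7-/- mice (SE 0.0953, 0.870), with an interaction of -0.19 and a limma adjusted p of 0.959. Cdk6 differed between Pax5Wt and EV by 0.41 in Pax5-/- cells (limma adjusted p = 0.211, and 0.0124 with the replicate block) and by -0.558 in Sirt7-/- cells (0.349, and 0.0878 with the block), with each library of the first group above and each of the second below those with EV. These tables were normalized separately, and the difference between them was not tested.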

How the results depend on the processing

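The alternatives left 193 of 220 counts of genes called, or with a peak, within 1.5 times the value reported, and no called gene changed direction. Counts that stayed at 0 are among the 193. Most RNA comparisons had 0 of the 10 genes called, so this share says little about how steady the calls are. Among pre-B cells, Sirt7-/- against Wt, DESeq2 called 2 of the 10 genes, where it called 4.12% of all tested genes. Without Sirt7-/- pre-B replicate 1, which leaves that group with 1 library, Ccnd2 and Ccnd3 passed the threshold. Their log2 differences were 0.93 and 0.89, and more of all tested genes passed in that fit too. With the replicate block, calls among the 10 rose to 4 (Pax5Wt against EV), 1 (K198Q against EV), 3 (K198R against EV), 4 (K198R against Pax5Wt) and 4 (K198R against K198Q) in Pax5-/- cells, and over all tested genes from 434 to 1343, 123 to 363, 1324 to 2834, 383 to 1004 and 668 to 1749. In Sirt7-/- cells it gave 1 with Pax5Wt against EV (Myc, limma adjusted p = 0.0357) and 3 with K198R against EV (Myc 0.00908, Cdk6 and E2f2), and over all tested genes 5 to 268 and 659 to 1588. There the same number marks libraries whose deviations correlated (0.264 to 0.383 in Pax5-/- cells, 0.156 to 0.428 in the third table), and the labels do not say that a number marks a shared day. Without the filter or without the trend the count was 0 and 0 for K198R against EV in Pax5-/- cells, 0 and 0 for Sirt7-/- against Wt cultured cells, and 1 and 0 for K198R against EV in Sirt7-/- cells. Leaving out a replicate gave 0 to 1, 0 to 0 and 0 to 1 for these 3, and the fit of 2 groups alone gave 0 for Sirt7-/- against Wt. Within 1 kb of a start site, 0 of the 10 genes had a K198Q peak in both replicates, where 5.63% of the 21951 protein-coding genes had one. The cause of these changes was not tested. With 2 libraries a group, 41 of 277 values of single called genes fell short of the threshold under an alternative.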
